A study of Mus musculus with 24 samples.

Results

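Cytosolic ribosomal protein genes encode the proteins of the 80S ribosome, and they were described here in endothelium and stroma of mouse bone marrow. Members were chosen by symbol: Rpl or Rps followed directly by digits with at most a short letter suffix, together with Rplp0, Rplp1, Rplp2 and Rpsa. Symbols of the Rps6k kinases (10 symbols) and of pseudogenes ending in -ps (7 symbols) were left out, and so were Rps19bp1 and Rps27rt, whose suffixes go beyond the rule. The rule used no measured value. It found 85 of the 23879 gene symbols in the files, 49 of them for the large subunit, 33 for the small subunit and 3 for the P-stalk, and 8 of the 85 are paralogs that stand beside a more widely used gene (Rpl10l, Rpl22l1, Rpl36al, Rpl39l, Rpl3l, Rpl7l1, Rps27l and Rps4l).

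The study profiled polyA RNA of C57BL/6J mice in 24 libraries, which form 8 groups of 3 by their titles. Each cell type, endothelium and stroma, was taken from culture, from a further culture series without blood cells (called alone here) or together with blood stem and progenitor cells, and from the marrow in vivo. The co-culture titles write HSPC and the other labels hematopoietic stem cells, and HSPC is used here. All 18 titles from culture, with or without HSPC, hold the name Akt1, a kinase of growth factor signalling. The labels do not say what was done to Akt1, and the 6 in vivo titles lack the name, so setting, Akt1 and any difference in isolation cannot be told apart. The labels give no age, no sorting scheme and no word on whether HSPC were removed before RNA was taken. No label states whether the libraries of a group are from different animals or cultures, so p-values here reflect the spread between libraries, some or all of which may be technical.

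A eukaryotic ribosome joins a small subunit, which reads the mRNA, to a large subunit, which forms the peptide bond, and each protein is present in about equal number. Most mRNAs of this family start with a C followed by a run of pyrimidines, the terminal oligopyrimidine (TOP) motif, through which mTOR and Larp1 set how well they are translated and how long they last. Transcription of the same genes is known to follow growth and Myc, and in marrow the output of ribosomes is known to matter for dividing blood progenitors and their niche cells.

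Start regions of 6 members are shown because these genes carry large changes described below, belong to a pair of paralogs that moved differently or, as Rpl15, did not rise with the rest. Each window runs from 40 bases before the annotated start to the 20th base from it, on the strand of the gene, as RefSeq places it in GRCm38.p6. Capitals mark the longest run of C or T of at least 5 bases that reaches within 5 bases of the start, and a window without capitals holds no such run. Rps27 lies at chr3:90213629-90213688 on the minus strand, Rpl15 at chr14:18270967-18271026 on the minus strand and Rpl13a at chr7:45128726-45128785 on the minus strand. Rps27l (chr9:66946046-66946105), Rpl22 (chr4:152324396-152324455) and Rpl22l1 (chr3:28805468-28805527) lie on the plus strand, and for Rps27l and Rpl22 the first of their listed starts is shown.
Rps27: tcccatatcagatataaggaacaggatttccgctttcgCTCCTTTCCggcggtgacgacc
Rpl15: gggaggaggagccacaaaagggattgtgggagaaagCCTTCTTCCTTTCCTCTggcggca
Rpl13a: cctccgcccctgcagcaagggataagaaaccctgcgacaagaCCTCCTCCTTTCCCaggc
Rps27l: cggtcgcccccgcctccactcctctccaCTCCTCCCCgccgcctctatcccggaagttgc
Rpl22: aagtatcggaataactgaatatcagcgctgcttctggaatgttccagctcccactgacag
Rpl22l1: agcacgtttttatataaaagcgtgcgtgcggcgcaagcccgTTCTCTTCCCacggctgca
Rps27 and Rpl15 hold the full motif of a C at the start with at least 4 C or T after it. Rpl13a and Rpl22l1 have their run just downstream of the annotated start and Rps27l upstream of it. Rpl22 has no run of at least 5 bases that reaches within 5 bases of its first listed start. A shorter run lies there, and other runs lie farther off in the window. Of the 85 members, 64 matched the RefSeq table. The full motif, read on the gene's strand, stood at the start of 13 of these 64 (20.31%) and of 3.008% of all 27025 genes of the table. Searched on both strands of 300 bases around the start, CCGGAAG (an ETS-type motif) was held by 26 members (40.62%, against 9.928% of all genes), AAGATGGC (the YY1 motif) by 6 (9.375%, against 3.19%) and GGGCGG (the Sp1-type GC box) by 40 (62.5%, against 38.2%). None of these motifs contains another. TATAAA was found in 7 members (10.94%, against 15.67%). The first 4 patterns were thus met more often among members than in the table, and TATAAA less often, as a description of letters only.

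Levels are FPKM, fragment counts scaled for transcript length and for the size of the library, as the authors deposited them. The library totals ran from 1421447 to 1808592 FPKM, no counts were used here and the depth is unknown. The summed level of 20 endothelial identity genes was 14477 to 36931 FPKM in endothelial libraries and 76.9 to 474 in stromal ones. That of 20 mesenchymal matrix genes was 16566.5 to 132098 in stroma and 7943 to 23019 in endothelium, so cultured stroma and cultured endothelium overlapped. Replicate 1 of both cultured groups stood apart from replicates 2 and 3 in its ribosomal protein genes. Another 3 cultured libraries (endothelium replicates 2 and 3, stroma replicate 3) carry Xist, the RNA that silences an X chromosome, which was at most 2.35 FPKM in the rest. In bulk samples fewer cells of a type and less RNA per cell cannot be told apart.

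Almost every member was detected in every library. Of the 85, 80 had at least 1 FPKM in all 24 libraries, 56 had a mean of at least 100 FPKM, 13 of at least 1000 and 7 of under 20, and Rpl10l was listed at 0 throughout. Among the highest means over the 24 libraries were those of Rplp1 (3727 FPKM), a P-stalk protein, Rpl8 (2937), which lies by the peptidyl transferase centre, Rps9 (1987), Rpl4 (1748) and Rplp0 (1742), the base of the P-stalk. The lowest detected means were those of Rpl3l (0.20), a paralog known from muscle, Rps12 (2.54) and Rps13 (5.93). Proteins that ribosomes hold in about equal number were thus listed at levels far apart, and copies of these genes elsewhere in the genome, given further below, may bear on single values.

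**Figure D1:**
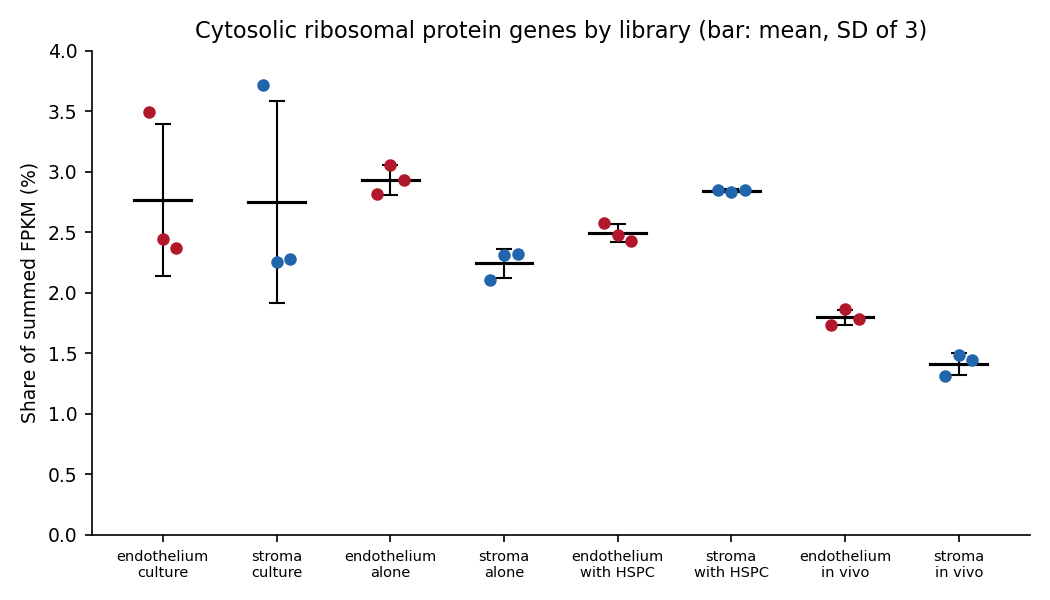
Share of each library's summed FPKM held by the 85 cytosolic ribosomal protein genes (y axis, percent) in the 8 groups (x axis). Points are libraries (red endothelium, blue stroma), with the mean and SD of 3. The 6 in vivo libraries lie at 1.31 to 1.87, below the other 18, and stroma with HSPC lies above stroma alone.

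Together the members held between 1.31% and 3.71% of a library's summed FPKM. The shares were 2.81%, 3.06% and 2.93% in endothelium alone and 2.58%, 2.48% and 2.43% with HSPC. In stroma they were 2.10%, 2.31% and 2.32% alone and 2.85%, 2.83% and 2.85% with HSPC. The addition of HSPC thus went with a lower share in endothelium and a higher one in stroma, with no overlap between the groups in either cell type. In culture the shares were 3.49%, 2.45% and 2.37% in endothelium and 3.71%, 2.25% and 2.28% in stroma. In vivo they were 1.74%, 1.87% and 1.79% in endothelium and 1.31%, 1.49% and 1.45% in stroma, below every library from culture. Both cultured groups are spread widely because of their replicate 1. With the 100 highest genes of each library left out, some of them members, the mean shares were 1.72% and 1.82% in cultured endothelium and stroma, 1.78% and 1.48% alone, 1.72% and 1.95% with HSPC and 1.56% and 1.62% in vivo. On that base the mean of stroma in vivo lay above that of stroma alone, with overlapping libraries. Endothelium alone (1.71% to 1.85%) and with HSPC (1.71% to 1.75%) then overlapped, while stroma alone and with HSPC did not. In vivo and cultured libraries overlapped too, at 1.54% to 1.61% and 1.53% to 1.85% in endothelium. In stroma they were at 1.49% to 1.71% and 1.67% to 2.00%.

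The response to HSPC was asked of each cell type in the second culture series, in limma fits over all tested genes with 3 libraries per group. In stroma the members rose: 72 of 83 tested members were higher with HSPC and 1 was lower at an adjusted p under 0.05, where 25.6% of all 14017 tested genes were higher and 35.4% lower. The median log2 difference was 0.43 over the members and -0.04 over all tested genes, with quartiles of 0.32 and 0.52 for the members and -0.31 and 0.21 for all. In 70 members all 3 libraries with HSPC lay above all 3 without, against 26.1% of tested genes. Large-subunit genes (40 of 47 higher, median 0.40) and small-subunit genes (29 of 33 higher, median 0.45) had similar medians.

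Rps27, a small-subunit protein that binds zinc, had the largest rise in stroma. Its level was 17.4, 22.8 and 23.7 FPKM alone and 36.0, 42.7 and 40.1 with HSPC. All libraries with HSPC lay above those without (log2 difference 0.87 ± 0.12 SE, limma adjusted p = 7.21e-05). Rps27a, which is made as a fusion with ubiquitin, stood at 56.3, 49.5 and 58.7 alone and 81.2, 106 and 86.1 with HSPC (log2 difference 0.72 ± 0.12 SE, limma adjusted p = 0.000283). Rpl13a, a protein near the exit tunnel, was at 731, 814 and 824 alone and 1278, 1213 and 1267 with HSPC (log2 difference 0.67 ± 0.05 SE, limma adjusted p = 8.15e-07). Neither gene had overlapping groups. Rpl13 belonged to the same group of large rises (log2 difference 0.69 ± 0.09 SE, limma adjusted p = 3.53e-05), with a mean of 116 ± 18.2 (SD, n = 3) alone and 186 ± 3.69 (SD, n = 3) with HSPC.

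Few members went otherwise in stroma. Rpl7l1, a paralog of Rpl7, was the one member that fell, from 126, 136 and 137 alone to 123, 111 and 118 with HSPC (log2 difference -0.18 ± 0.04 SE, limma adjusted p = 0.00431), and its groups did not overlap. The 10 members that did not pass the test were Rpl38, Rpl30, Rps13, Rpl31, Rpl26, Rpl3l, Rps12, Rpl15, Rps29 and Rps4l. Of these, Rpl38, a protein known for its role in translating patterning mRNAs, had a positive difference with a wide spread, 55.1, 30.7 and 58.6 alone and 102, 73.3 and 40.6 with HSPC (log2 difference 0.53 ± 0.41 SE, limma adjusted p = 0.296). Rpl15 was at 168, 167 and 172 alone and 168, 152 and 163 with HSPC (log2 difference -0.07 ± 0.04 SE, limma adjusted p = 0.107), so its groups overlapped.

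Endothelium moved the other way and by less. With HSPC, 24 of 83 members were lower and 0 higher at an adjusted p under 0.05, where 20.3% of all tested genes were lower and 28.3% higher, and at an unadjusted p under 0.05 the counts were 38 lower and 0 higher. The median log2 difference was -0.17 over the members and 0.02 over all tested genes. The count depended on scaling and on single libraries. It was 47 after trimmed-mean scaling, 51 after quantile normalization and 43 with only the endothelial groups in the fit, and 11 to 13 when replicate 2 or 3 of either endothelial group was left out. Both scalings also moved the share of higher genes among all called, from 58.2% to 47.8% and 45.4%.

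Rplp0, the scaffold of the P-stalk, had the largest fall among members called in endothelium. It was at 1987, 2269 and 2113 FPKM alone and 1738, 1647 and 1582 with HSPC (log2 difference -0.36 ± 0.06 SE, limma adjusted p = 0.000474), and the groups did not overlap. Rps27a was at 133, 123 and 128 alone and 110.0, 83.4 and 110.0 with HSPC (log2 difference -0.35 ± 0.12 SE, limma adjusted p = 0.0312). Both genes had all libraries with HSPC below all without. Rpl10a, the protein of the L1 stalk, fell as well (log2 difference -0.30 ± 0.09 SE, limma adjusted p = 0.0178), from a mean of 204 ± 7.9 (SD, n = 3) to 166 ± 18.4 (SD, n = 3). Rps27, the gene with the largest rise in stroma, was at 31.0, 36.5 and 29.7 alone and 28.6, 26.3 and 23.2 with HSPC (log2 difference -0.30 ± 0.12 SE, limma adjusted p = 0.0578), which missed the threshold.

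The effect of HSPC differed between the cell types for most members. The interaction, endothelial minus stromal change, was below 0 for 71 of 83 members and above 0 for none at an adjusted p under 0.05, against 21.1% below and 36.0% above among all tested genes. At an unadjusted p under 0.05 the counts were 73 below and 1 above. Its median was -0.58 over the members and 0.11 over all tested genes. Of the 83, 73 had a positive difference in stroma with a negative one in endothelium. Both single changes passed the test, up in stroma and down in endothelium, in 23 members. The interaction is the difference of these changes in the same fit, so its passing in all 23 adds little. No share of all tested genes stands beside these 73 and 23. Among the largest interactions were those of Rps27 (log2 difference -1.18 ± 0.17 SE, limma adjusted p = 0.000145), Rps27a (log2 difference -1.06 ± 0.17 SE, limma adjusted p = 0.000264) and Rps18 (log2 difference -0.93 ± 0.19 SE, limma adjusted p = 0.0016).

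**Figure D2:**
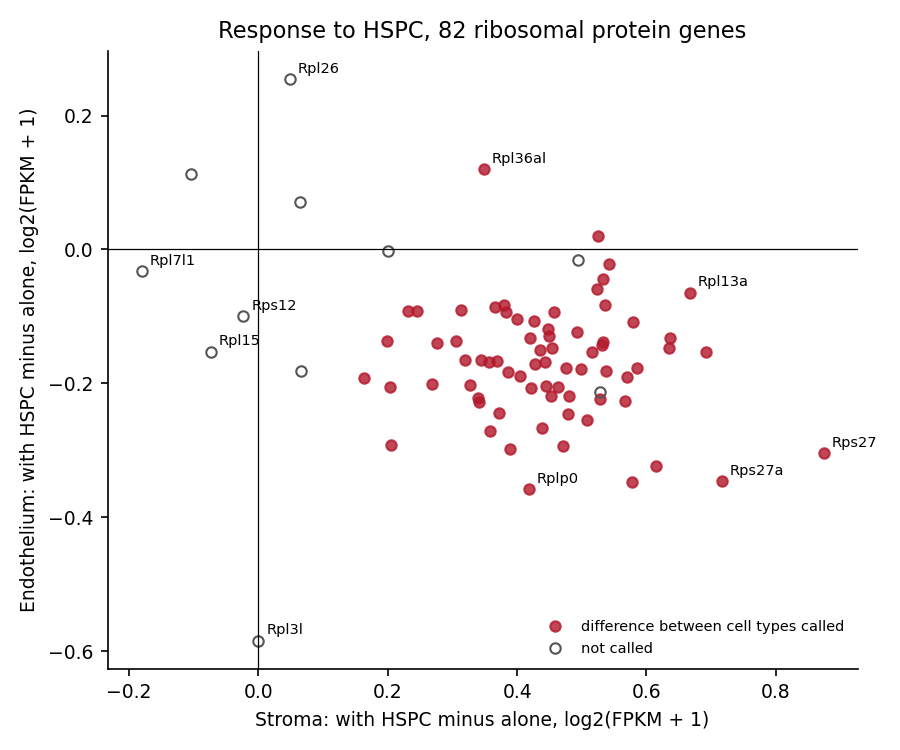
Log2 difference with HSPC minus alone in stroma (x axis) and endothelium (y axis) for 82 tested members; Rps4l lies outside the plotted range. Filled points are members whose interaction passed the limma test at an adjusted p under 0.05 and open points those that did not; most filled points lie at the lower right, with Rps27 farthest to the right.

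Among the stalk genes and Rpsa the stromal rise was shared, and the endothelial fall passed the test in some. Rplp1 was at 3436, 3928 and 3773 FPKM in stroma alone and 5132, 4798 and 5322 with HSPC (log2 difference 0.45 ± 0.07 SE, limma adjusted p = 0.000117), and at 3989, 4348 and 4177 and 3981, 3639.5 and 3676 in endothelium (log2 difference -0.15 ± 0.07 SE, limma adjusted p = 0.0909). Rplp2 was at 113, 132 and 121 in stroma alone and 167, 166 and 170.3 with HSPC (log2 difference 0.46 ± 0.06 SE, limma adjusted p = 2.71e-05), and did not pass the test in endothelium (log2 difference -0.09 ± 0.06 SE, limma adjusted p = 0.194). Rplp0 rose in stroma too, from 1577, 1757 and 1737 to 2231, 2238 and 2298 (log2 difference 0.42 ± 0.06 SE, limma adjusted p = 9.3e-05). All 3 stalk genes therefore rose in stroma, and of the 3 only Rplp0 passed the test in endothelium. Rpsa, which is also known as a laminin receptor, was at 228, 273 and 265 in stroma alone and 333, 337 and 352 with HSPC (log2 difference 0.42 ± 0.08 SE, limma adjusted p = 0.000534), and fell in endothelium from a mean of 312 ± 24 (SD, n = 3) to 269.8 ± 18.4 (SD, n = 3) (log2 difference -0.21 ± 0.08 SE, limma adjusted p = 0.0417). At the low end of the abundance range Rps12, Rps13 and Rpl3l passed the test in neither cell type, nor did their interactions (limma adjusted p = 0.852, 0.332 and 0.377).

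Blood cell markers moved with HSPC in both cell types. The summed level of 15 pan-hematopoietic genes was 3.08 to 4.57 FPKM in stroma alone, with Ptprc, Vav1, Spi1 and 6 others at 0 in all 3 libraries, and 43.1 to 51.3 with HSPC, with none at 0 in all. In endothelium it was 88.4 to 97.3 alone, with Ptprc, Vav1, Spi1 and 4 others at 0, and 234 to 281 with HSPC, with none. For 15 granulocyte genes the sum was 26.4 to 29.9 in stroma alone and 726 to 929 with HSPC, and 51.1 to 58.5 in endothelium alone and 1773 to 1995 with HSPC. Of the tested pan-hematopoietic genes 14 of 15 rose in stroma and 13 of 15 in endothelium, and of the tested granulocyte genes 12 of 14 and 13 of 14. Both sums were thus higher with HSPC in both cell types, while the ribosomal protein genes moved in opposite directions. The 20 cell cycle genes summed to 719 to 872 in stroma alone and 394 to 411 with HSPC, and 19 of 20 fell. In endothelium they summed to 1682 to 1963 alone and 1396 to 1495 with HSPC, and 13 of 20 fell. The part of added blood cells and of cell division in the ribosomal protein differences was not tested.

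In vivo libraries held lower levels of most members than cultured ones. In stroma 72 of 83 members were called, all of them lower in vivo, where 55.4% of all 14904 tested genes were called and 31.4% lower, and 76 were lower and 1 higher at an unadjusted p under 0.05. In endothelium 30 were lower and 1 higher, where 29.8% were lower and 23.6% higher. The median log2 difference was -0.99 over the members in stroma (-0.15 over all genes) and -0.58 in endothelium (-0.09). Of all members, 28 were lower in both cell types, and no share of all tested genes stands beside this count. The stromal share of called members is thus above that of all genes, while the endothelial share lower in vivo (30 of 83) is near it. Without replicate 1 of cultured endothelium 19 members were called there. After trimmed-mean scaling 25 members were lower and 1 higher in endothelium, with a median of -0.40, and 62 were lower and 1 higher in stroma, with a median of -0.77. That scaling moved the median of all genes to 0 in endothelium and 0.02 in stroma, and the share of higher genes among all called from 44.2% to 54.0% and from 43.3% to 54.5%.

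Rps26, which lies by the mRNA exit channel, was among the largest falls in both cell types. In endothelium it was at 939, 650.5 and 789.7 FPKM in culture and 231, 280.4 and 282 in vivo (log2 difference -1.57 ± 0.25 SE, limma adjusted p = 0.000469). In stroma it was at 1082, 573 and 555 in culture and 195, 245 and 245 in vivo (log2 difference -1.62 ± 0.25 SE, limma adjusted p = 0.000359). No in vivo library reached the lowest cultured one. Rps2, at the mRNA entry side, was at 2496, 1301 and 656 in cultured endothelium and 387, 443 and 458 in vivo (log2 difference -1.58 ± 0.41 SE, limma adjusted p = 0.00848). The cultured values are spread several-fold and still lie above those in vivo. Rpl38 was at 105, 73.2 and 53.8 in cultured stroma and 16.0, 29.6 and 17.0 in vivo (log2 difference -1.84 ± 0.42 SE, limma adjusted p = 0.00416), and Rpl34 had a mean of 55.3 ± 10.8 (SD, n = 3) in culture and 19.7 ± 4.36 (SD, n = 3) in vivo (log2 difference -1.44 ± 0.22 SE, limma adjusted p = 0.000312).

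A few members did not follow. Rps27 was at 27.7, 28.8 and 32.1 in cultured endothelium and 24.8, 33.0 and 35.1 in vivo (log2 difference 0.05 ± 0.20 SE, limma adjusted p = 0.86), and at 21.1, 18.1 and 12.6 and 18.7, 17.2 and 17.9 in stroma (log2 difference 0.08 ± 0.20 SE, limma adjusted p = 0.762). Its groups overlapped in both cell types. Rps3, which lines the entry channel for mRNA, was at 2272, 1929.8 and 1374 in cultured endothelium and 1759.9, 1917 and 2155 in vivo (log2 difference 0.09 ± 0.26 SE, limma adjusted p = 0.81). In stroma Rps3 fell from 2441, 1456 and 1455 to 809, 869 and 929 (log2 difference -0.99 ± 0.26 SE, limma adjusted p = 0.00794). The change therefore differed between the cell types for Rps3 (log2 difference 1.08 ± 0.36 SE, limma adjusted p = 0.0426). It also differed for Rpl22, a protein on the outer face of the large subunit (log2 difference 1.23 ± 0.31 SE, limma adjusted p = 0.0126), and for Rps20, a protein of the small subunit head (log2 difference 1.22 ± 0.32 SE, limma adjusted p = 0.014). Rps20 was at 2119.8, 1589 and 1582 in cultured stroma and 658, 712 and 735 in vivo, and at 1529.7, 1057 and 809 and 996, 1027 and 1046 in endothelium. These 3 were the only members called in the interaction, all above 0, where 16.4% of all tested genes were called in that direction and 17.1% in the other. The interaction's median was 0.35 over the members and -0.01 over all genes, and 9 members were called without replicate 1 of cultured endothelium, 5 without replicate 1 of cultured stroma and 15 without both.

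Erythroid markers moved with the in vivo setting. The 14 erythroid genes summed to 40248 to 49098 FPKM in stroma in vivo and 1388 to 2044 in endothelium in vivo, against 64.2 to 258 in cultured stroma and 61.4 to 183 in cultured endothelium, where Klf1, Gata1 and other erythroid genes were at 0. The 15 granulocyte genes summed to 1684 to 3653 in stroma in vivo and 279 to 406 in endothelium in vivo, and to at most 54.2 in the cultured libraries. Cell cycle genes summed to 718 to 792 in endothelium in vivo and 2760 to 5451 in culture, and to 1737 to 2069 and 2570 to 4895 in stroma. Erythroid and granulocyte transcripts were thus highest in stroma in vivo among these 4 groups, and their part in the lower ribosomal protein levels was not tested.

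**Figure D3:**
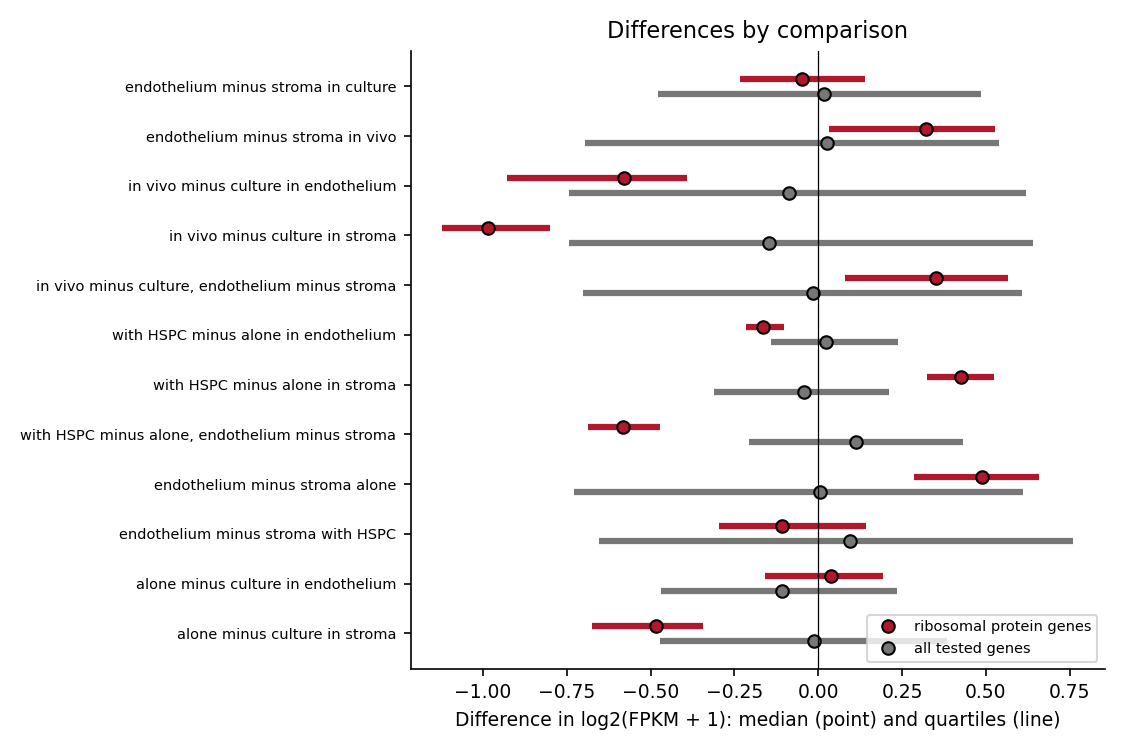
Log2 differences in the 12 comparisons (rows): median (point) and quartiles (line) of the tested ribosomal protein genes (red) and of all tested genes (grey). The red lines are shorter than the grey ones, with the lowest red median (-0.99) for stroma in vivo minus culture and the highest (0.49) for endothelium minus stroma alone.

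How endothelium and stroma compared depended on the setting. Alone, 67 of 83 members were higher in endothelium and 4 lower, where 42.0% of tested genes were above and 41.3% below, with a median log2 difference of 0.49 over the members and 0.00 over all genes. With HSPC, 15 were higher and 33 lower in endothelium, where 46.6% were higher and 38.6% lower, and the median was -0.11 against 0.09. That split was 6 higher and 49 lower after trimmed-mean scaling and 11 and 42 after quantile normalization. In vivo, 11 were higher and 1 lower, where 25.0% were higher and 24.2% lower, and the median was 0.32 against 0.03. In culture, 1 was higher and 4 lower, where 20.1% were higher and 18.6% lower, and the median was -0.05 against 0.02. These in vivo and culture counts rest on few libraries. In vivo the count of 12 was 4 to 6 without replicate 2 or 3 of endothelium or any 1 replicate of stroma, and 49 with only the in vivo groups in the fit. In culture the count of 5 was 0 with only the cultured groups, 8 and 2 and 1 without endothelial replicate 1, 2 and 3, and 11 and 2 without stromal replicate 1 and 2. The median in culture turned to 0.25 without replicate 1 of stroma. It was 0.29 without the libraries that carry Xist, which leaves only replicate 1 of cultured endothelium.

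Rpl19 and Rps27a had the largest differences of the cells alone after the paralog Rpl22l1. Rpl19, which forms a bridge between the subunits, was at 224, 251 and 230.1 FPKM in endothelium alone and 92.5, 110.0 and 111 in stroma alone (log2 difference 1.17 ± 0.09 SE, limma adjusted p = 1.09e-07). With HSPC it was still higher in endothelium (log2 difference 0.50 ± 0.09 SE, limma adjusted p = 0.000207). Rps27a was at 133, 123 and 128 and 56.3, 49.5 and 58.7 (log2 difference 1.21 ± 0.12 SE, limma adjusted p = 1.37e-06), again without overlap. Rps27 turned around between the settings, higher in endothelium alone (log2 difference 0.59 ± 0.12 SE, limma adjusted p = 0.000718) and lower with HSPC (log2 difference -0.59 ± 0.12 SE, limma adjusted p = 0.000711).

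Of the 4 members lower in endothelium alone, Rpl22 and Rpl11 were the largest. Rpl11, which together with Rpl5 and 5S RNA binds Mdm2, was at 40.9, 45.2 and 45.3 in endothelium alone and 64.1, 73.5 and 71.1 in stroma alone (log2 difference -0.65 ± 0.06 SE, limma adjusted p = 1.31e-06), and it was lower in endothelium with HSPC too (log2 difference -0.86 ± 0.06 SE, limma adjusted p = 9.97e-08). Rpl31 (log2 difference -0.47 ± 0.09 SE, limma adjusted p = 0.000472) and Rpl15 (log2 difference -0.22 ± 0.04 SE, limma adjusted p = 0.000132) were the other two. In vivo the largest differences called higher in endothelium were those of Rps3, at 1759.9, 1917 and 2155 in endothelium and 809, 869 and 929 in stroma (log2 difference 1.16 ± 0.26 SE, limma adjusted p = 0.00361), and Rps28, at 36.8, 37.5 and 43.2 and 14.5, 21.2 and 18.4 (log2 difference 1.09 ± 0.25 SE, limma adjusted p = 0.00431). Both genes had all endothelial libraries above all stromal ones. The one member called lower there, Rpl39l, is described with the paralogs. In culture Rpl26 had the largest difference among called members, at 107, 36.1 and 23.2 in endothelium and 199, 166 and 101 in stroma (log2 difference -1.71 ± 0.55 SE, limma adjusted p = 0.0324), and its groups overlapped.

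The 2 culture series could also be compared, as groups alone against groups in culture. In endothelium 2 of 82 tested members were lower alone, Rps29 (log2 difference -0.93 ± 0.28 SE, limma adjusted p = 0.0383) and Rpl31 (log2 difference -0.63 ± 0.17 SE, limma adjusted p = 0.0232), and 0 higher, where 14.4% of tested genes were lower and 8.78% higher. In stroma 12 were lower and 0 higher, where 17.8% were lower and 16.0% higher, led by Rpl36a (log2 difference -1.16 ± 0.30 SE, limma adjusted p = 0.0136) and Rps27l (log2 difference -1.03 ± 0.29 SE, limma adjusted p = 0.0209). Rps29 was at 67.5, 34.8 and 29.2 in cultured endothelium and 20.4, 21.7 and 21.3 alone. Rpl36a was at 43.2, 22.6 and 21.5 in cultured stroma and 8.74, 11.8 and 15.8 alone, and replicate 1 of the culture group was the highest for both genes. At an unadjusted p under 0.05, 3 members were lower and 1 higher in endothelium and 27 lower and 0 higher in stroma. After quantile normalization 2 members were higher and 1 lower in endothelium, and the share of higher genes among all called there went from 37.8% to 51.3%, and to 48.9% after trimmed-mean scaling. Without replicate 1 of both cultured groups 40 members were called in endothelium and 30 in stroma. Leaving out any replicate of endothelium alone gave 0 calls, leaving out cultured endothelium replicate 1 or 2 gave 6 or 1, and leaving out any replicate of stroma alone gave 3 to 5.

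Paralogs moved apart from the genes they resemble in some comparisons and with them in others. Rpl22 and Rpl22l1 encode alternative forms of a protein that binds RNA and can stand in for each other in the ribosome. Rpl22 was at 220.4, 239 and 233 FPKM in endothelium alone and 386, 411 and 412 in stroma alone (log2 difference -0.80 ± 0.06 SE, limma adjusted p = 1.02e-07), and Rpl22l1 at 322, 338 and 322 and 117, 142 and 152 (log2 difference 1.26 ± 0.09 SE, limma adjusted p = 1e-07). One was thus lower and the other higher in endothelium, with no overlap for either gene. The ratio of Rpl22l1 to Rpl22 was 1.42 ± 0.04 (SD, n = 3) in endothelium alone and 1.54 ± 0.084 (SD, n = 3) with HSPC, against 0.34 ± 0.033 (SD, n = 3) in stroma alone and 0.362 ± 0.068 (SD, n = 3) with HSPC. In vivo the order was the other way, 0.323 ± 0.033 (SD, n = 3) in endothelium and 0.697 ± 0.05 (SD, n = 3) in stroma, and no library of one cell type overlapped the other. In culture the ratios were spread, 1.37, 0.382 and 1.59 in endothelium and 0.635, 0.332 and 0.325 in stroma.

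From culture to in vivo Rpl22 passed the test in stroma and Rpl22l1 in endothelium. Rpl22 was at 304, 389.7 and 200.2 in cultured endothelium and 282, 296 and 315 in vivo (log2 difference 0.05 ± 0.22 SE, limma adjusted p = 0.896), and fell in stroma from 566, 382 and 419.9 to 191, 195 and 209 (log2 difference -1.18 ± 0.22 SE, limma adjusted p = 0.00129). Rpl22l1 fell in endothelium from 415, 149 and 318 to 80.6, 98.7 and 110.3 (log2 difference -1.49 ± 0.43 SE, limma adjusted p = 0.0137), and in stroma it was at 359, 127 and 136 and 122, 141 and 152 (log2 difference -0.41 ± 0.43 SE, limma adjusted p = 0.438). With HSPC both rose in stroma, Rpl22 to 510.3, 604 and 529 (log2 difference 0.44 ± 0.06 SE, limma adjusted p = 6.32e-05) and Rpl22l1 to 209.8, 172 and 207 (log2 difference 0.52 ± 0.09 SE, limma adjusted p = 0.000529). In endothelium with HSPC Rpl22 fell to 194, 196 and 184 (log2 difference -0.27 ± 0.06 SE, limma adjusted p = 0.00324), and Rpl22l1 did not pass the test (log2 difference -0.15 ± 0.09 SE, limma adjusted p = 0.204).

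**Figure D4:**
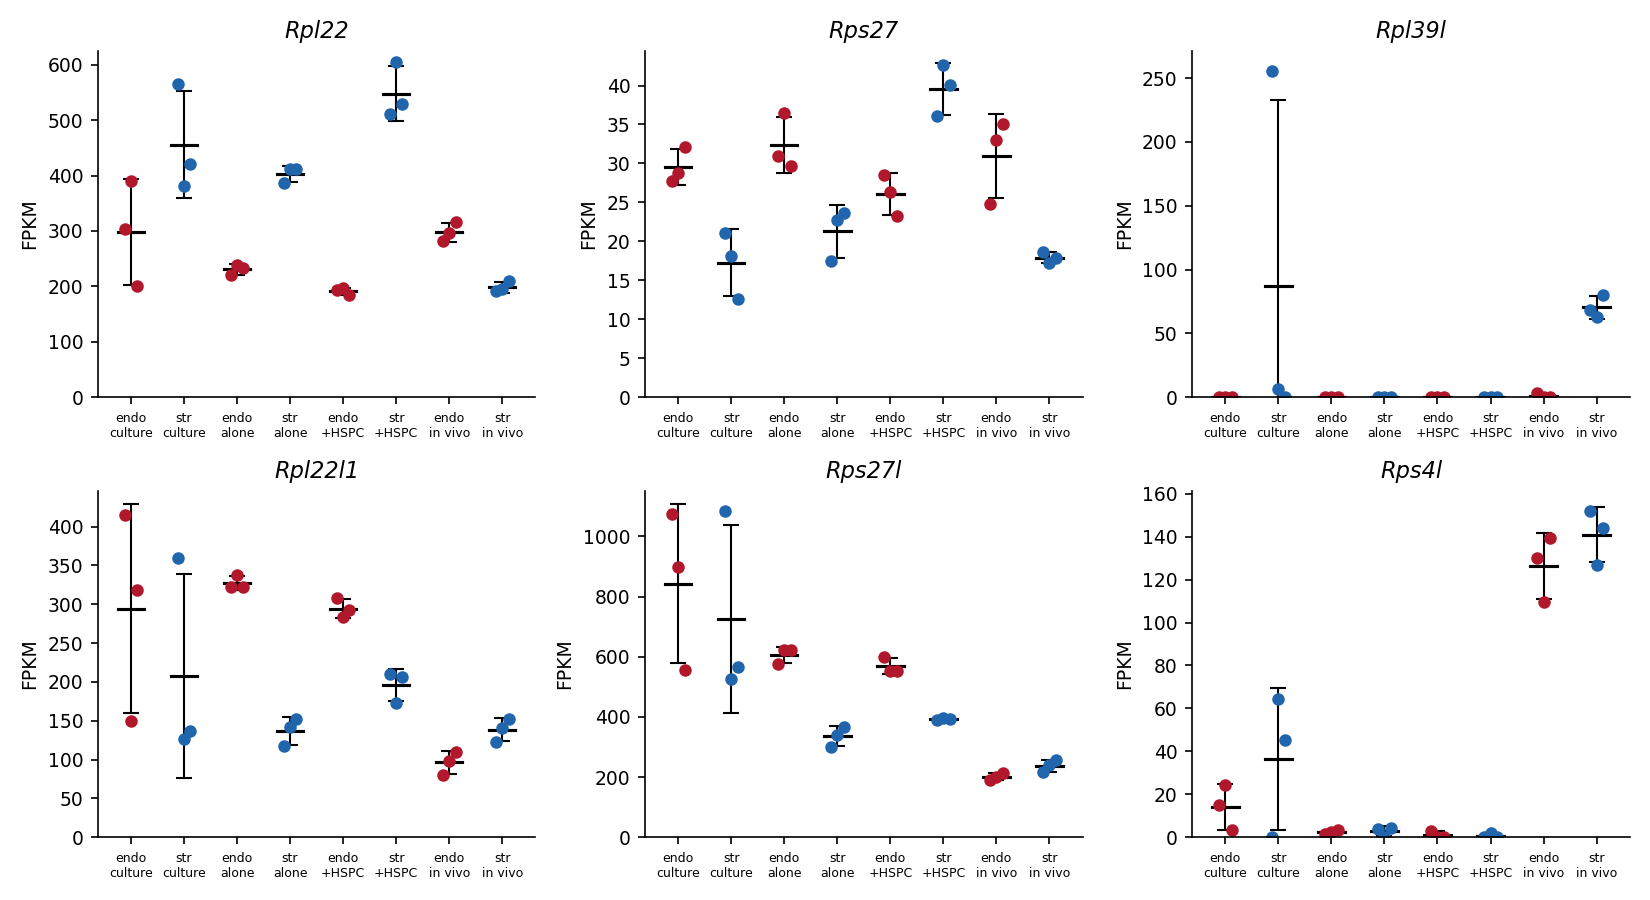
FPKM (y axis, from 0) of Rpl22, Rpl22l1, Rps27, Rps27l, Rpl39l and Rps4l in the 8 groups (x axis; endo is endothelium and str is stroma). Points are libraries, with the mean and SD of 3; Rps4l is high in the 6 in vivo libraries and Rpl39l in the 3 of stroma in vivo and in 1 of cultured stroma.

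Rps27l, a paralog of Rps27 known as a p53 target, was listed well above Rps27 in each library. It fell in vivo from 1073, 899 and 554 to 190.0, 199 and 214 in endothelium (log2 difference -2.01 ± 0.29 SE, limma adjusted p = 0.000257), the largest fall called there. In stroma it fell from 1086, 525 and 567 to 217, 239 and 257 (log2 difference -1.53 ± 0.29 SE, limma adjusted p = 0.00137), while the groups of Rps27 overlapped in both. With HSPC it was at 301, 340.3 and 367 in stroma alone and 389, 397 and 393 with HSPC (log2 difference 0.23 ± 0.06 SE, limma adjusted p = 0.00868), beside 0.87 for Rps27; the difference between these rises was not tested. The ratio of Rps27l to Rps27 was 15.9 ± 1.2 (SD, n = 3) in stroma alone and 9.98 ± 0.76 (SD, n = 3) with HSPC, without overlap. The ratio was 29.1 ± 11 (SD, n = 3) in cultured endothelium and 6.6 ± 0.93 (SD, n = 3) in vivo. Rps27 has 2 near copies elsewhere in the genome and Rps27l none, as given further below, so these ratios are uncertain.

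Rps4l and Rpl39l were high in few groups. Rps4l, a paralog of the X-linked Rps4x, was at 130.1, 109.7 and 139 in endothelium in vivo and 152, 127 and 144 in stroma in vivo. In culture it was at 15.2, 24.5 and 3.12 in endothelium and 0, 64.6 and 45.1 in stroma, and at no more than 4.47 in each of the 12 libraries alone or with HSPC. Its rise in vivo passed the test in endothelium (log2 difference 3.41 ± 1.31 SE, limma adjusted p = 0.049) and missed it in stroma (log2 difference 3.29 ± 1.31 SE, limma adjusted p = 0.0542), where its cultured libraries run from 0 to 64.6. Rpl39l, a paralog of Rpl39 known from male germ cells, was at 68.0, 63.2 and 80.4 in stroma in vivo and at 3.07, 0 and 0 in endothelium in vivo (log2 difference -5.48 ± 1.53 SE, limma adjusted p = 0.0127). In cultured stroma it was at 256, 6.23 and 0, and it was listed at 0 in the other 15 libraries. One cultured stromal library therefore held more of it than any in vivo library. The ratio of Rpl36al to Rpl36a, genes with 2 near copies each, had group means between 20.6 and 32.4. That of Rpl7l1 to Rpl7 was 0.227 ± 0.0051 (SD, n = 3) in stroma alone and 0.149 ± 0.006 (SD, n = 3) with HSPC, without overlap: Rpl7l1 fell there while Rpl7 rose (log2 difference 0.42 ± 0.05 SE, limma adjusted p = 1.82e-05). In the other groups its means lay between 0.162 and 0.236.

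The X-linked members Rpl10, Rpl36a, Rpl39 and Rps4x all rose with HSPC in stroma, Rps4x from a mean of 869 ± 51.3 (SD, n = 3) to 1113 ± 16.3 (SD, n = 3) (log2 difference 0.36 ± 0.05 SE, limma adjusted p = 4.34e-05) and Rpl10 from 140.2 ± 13.1 (SD, n = 3) to 202 ± 6.24 (SD, n = 3) (log2 difference 0.53 ± 0.06 SE, limma adjusted p = 2.55e-05). In endothelium Rps4x (log2 difference -0.17 ± 0.05 SE, limma adjusted p = 0.0108) and Rpl39 (log2 difference -0.18 ± 0.07 SE, limma adjusted p = 0.0497) fell, and Rpl10 (log2 difference 0.02 ± 0.06 SE, limma adjusted p = 0.864) and Rpl36a (log2 difference -0.02 ± 0.15 SE, limma adjusted p = 0.992) did not pass the test and lay near 0. In cultured stroma Rps4x was at 1662, 1026 and 985, and replicate 3, which carries Xist, lay by replicate 2, which does not.

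The members moved together across the 24 libraries. Each member's log2(FPKM + 1) was correlated with the median of the other members, as a description over libraries that share their scaling. The median Pearson r was 0.899 over 84 members, and 67 had an r of at least 0.8. The 6 with an r under 0.5 were Rps4l (-0.62), Rpl39l (-0.18), Rpl3l (0.24), Rps27 (0.35), Rpl22 (0.39) and Rpl11 (0.43). These include paralogs and the members named above for going their own way. Among the 80 members with at least 1 FPKM in every library, the lowest of the 8 group means fell in stroma in vivo for 62 and in endothelium in vivo for 14. The highest fell in cultured stroma for 32, in endothelium alone for 20, in cultured endothelium for 16, in stroma with HSPC for 11 and in endothelium in vivo for 1, which was Rps3. The highest group mean was 1.54 to 5.93 times the lowest, with a median of 2.28, and 64 members had a ratio of at least 2. No value for all tested genes stands beside these correlations, group orders and ratios, so they are not shown to be particular to the members.

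Processed copies of these genes are spread over the mouse genome, and reads that fit several places can be split between them. In GENCODE M21 transcripts, 72 of 84 members with a transcript had at least 1 other gene with a stretch of at least 100 bases at 98% identity or more, up to 17 for Rpl21, and 12 had none. Over 77 members without the paralogs, the median of the mean level was 1366 FPKM for the 8 with no such copy, 510.0 for the 24 with 1 or 2, 104 for the 29 with 3 to 5 and 103 for the 16 with more. Spearman's rho between copies and level was -0.58 across these genes, which are not independent. Rps12 (2.54), with 7 copies, and Rps13 (5.93), with 4, were the lowest of their classes, well below the medians, while Rps2, with 11 copies, was at 1024. The part of copies in these low levels was not tested. Levels of single members are uncertain where reads fit several genes. For 9 members the listed genes with such a stretch summed to more than the member itself, such as Rpl14 (490.4) beside Rpl14-ps1 (1996). Such a gene need not be a processed copy. Cd9 (835.5) beside Rpl7l1 (122.2) and Fam69a (130.3) beside Rpl5 (104.3) were counted among the 9 too.

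**Figure D5:**
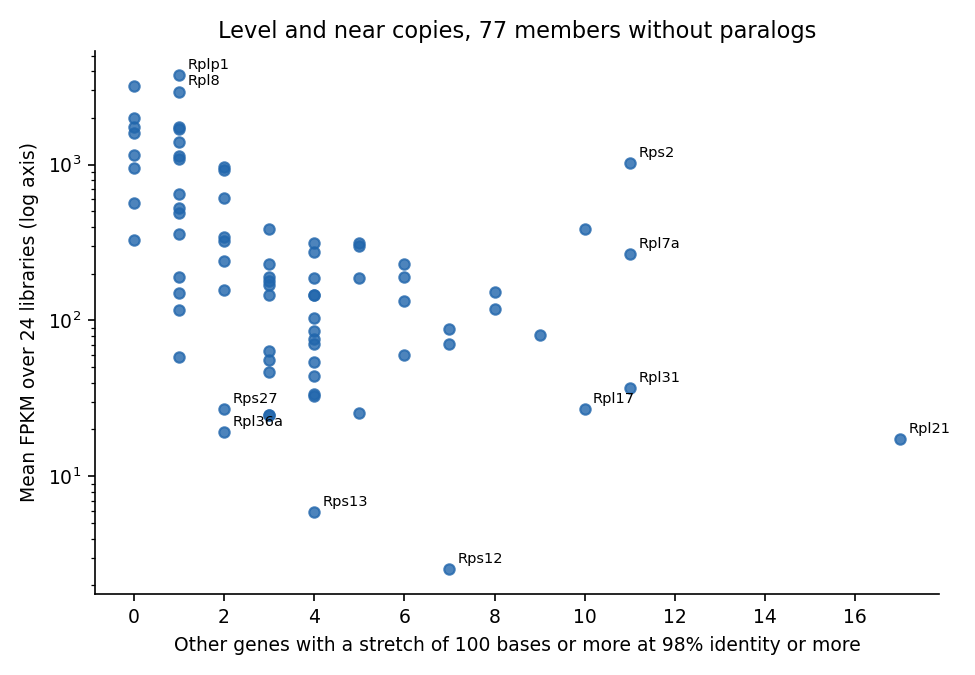
Number of other genes with a stretch of at least 100 bases at 98% identity or more (x axis) and mean FPKM over 24 libraries (y axis, log scale) for 77 members without paralogs. Members with no copy lie at 328 FPKM or above, and Rps12, Rps13 and Rpl21 lie lowest.

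Members with and without such copies moved in the same direction. Members with no copy were counted here only if their mean was at least 1 FPKM. That left out Rpl3l (mean 0.195), which has no copy and did not pass the test with HSPC in stroma. With HSPC in stroma all 9 tested members with no copy counted this way rose (median 0.44). So did 12 of 16 with more than 5 copies (median 0.40). With the listed genes that share such a stretch, Cd9 and Fam69a among them, added to their 23 members the median was 0.38. In vivo minus culture in stroma, 9 of 10 members with no copy and 13 of 16 with more than 5 were lower, with medians of -0.84 and -0.97, and -0.73 after adding copies. For HSPC in endothelium the medians were -0.17, -0.14 and -0.14, and for in vivo minus culture in endothelium -0.53, -0.55 and -0.56. Rpl22, Rps3 and Rps27l, which carry several of the results above, have no near copy. Rps27 has 2, of which Rps27rt is listed in the files with a mean of 0.61 FPKM, and Rps4l has no transcript in that annotation.

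Members with the full motif and members whose longest pyrimidine run at the start was under 8 bases moved alike in sign. These sets can share members, since a full motif can be shorter than 8 bases. No set without any run was compared. With HSPC in stroma 11 of the 13 members with the full motif rose, with a median of 0.48, and of the 38 matched and tested members whose longest run was under 8 bases, 32 rose and 1 fell, with a median of 0.39. In endothelium the medians were -0.17 and -0.16. In vivo minus culture gave -0.94 and -0.98 in stroma and -0.57 and -0.68 in endothelium.

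Other genes of translation were counted from lists, and the values of their genes are log2 differences ± SE from limma. Among all tested genes, 25.6% rose and 35.4% fell with HSPC in stroma, and 28.3% rose and 20.3% fell in endothelium. The HSPC interaction was below 0 for 21.1% and above 0 for 36.0%. Against culture, 31.4% were lower in vivo in stroma, and in endothelium 29.8% were lower and 23.6% higher. Of 19 elongation factors and other genes whose mRNAs are known to carry a TOP motif, 12 rose and 1 fell with HSPC in stroma, and 1 rose and 12 fell in endothelium. Their interaction was below 0 for 16 and above 0 for none, with a median of -0.43. Fau, which encodes a small-subunit protein fused to a ubiquitin-like one, changed by 0.93 ± 0.05 in stroma and was the 1 gene of the list that rose in endothelium (0.16 ± 0.05). Tpt1, a TOP mRNA of growing cells, changed by 0.69 ± 0.09 in stroma. In endothelium Eif4b, an initiation factor, changed by -0.31 ± 0.06. Of the 19, 16 fell in vivo in stroma and 13 in endothelium, and none rose, with Npm1, a nucleolar chaperone, at -1.56 ± 0.28 and -1.43 ± 0.28. By these counts most genes called in the list had the direction of the ribosomal protein genes, with Fau in endothelium going the other way.

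Genes that build ribosomes mostly fell in endothelium with HSPC. In stroma they were called in both directions, at no more than the shares of all tested genes. Of 40 biogenesis factors, 1 rose and 28 fell with HSPC in endothelium, Gnl3 by -0.57 ± 0.06 and Tsr1 by -0.60 ± 0.08, while in stroma 9 rose, such as Eif6 (0.58 ± 0.07), and 10 fell, such as Bop1 (-0.58 ± 0.06). Their interaction was below 0 for 20 and above 0 for 1. In vivo 27 fell and 1, Sbds, rose in endothelium (1.16 ± 0.14), and 25 fell in stroma. Of 18 RNA polymerase I genes, which make the rRNA precursor, 9 fell with HSPC in endothelium and none rose, where 20.3% of all tested genes fell and 28.3% rose. In stroma 4 rose and 5 fell, where 25.6% rose and 35.4% fell. In vivo 9 fell in each cell type, with 1 rise in endothelium and 2 in stroma.

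Regulators of ribosomal protein genes went in several directions. Myc, which drives ribosome production, rose with HSPC in stroma (0.97 ± 0.09) and fell in endothelium (-1.04 ± 0.09), and the interaction was -2.01 ± 0.13. It rose in vivo in both cell types (1.91 ± 0.34 in stroma and 1.85 ± 0.34 in endothelium), where ribosomal protein genes were lower. Larp1, which binds the TOP motif, fell with HSPC in endothelium (-0.40 ± 0.05), and Mtor fell in stroma (-0.31 ± 0.05). Eif4ebp1, a translation repressor under mTOR, rose in both (0.97 ± 0.08 in stroma and 1.20 ± 0.08 in endothelium). Over the 18 regulators 6 rose and 9 fell in stroma with HSPC, where 25.6% of all tested genes rose and 35.4% fell. In endothelium 5 rose and 7 fell, where 28.3% rose and 20.3% fell.

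Mitochondrial ribosomal protein genes, which serve another ribosome, had medians near those of all tested genes in the response to HSPC. Of 76, 11 rose and 22 fell in stroma, where 25.6% of all genes rose and 35.4% fell, and the median was -0.07 beside -0.04 over all. In endothelium 20 rose and 2 fell, where 28.3% rose and 20.3% fell, and the median was 0.06 beside 0.02. Mrps6 had the largest fall of the list in stroma (-1.75 ± 0.07) and Mrpl24 the largest rise (0.81 ± 0.06). Their interaction was above 0 for 24 and below 0 for 5, where 36.0% of all genes were above and 21.1% below. In vivo 63 of 76 were lower in endothelium (median -0.81) and 39 in stroma (median -0.55), with none higher. Among all genes 29.8% were lower in endothelium and 31.4% in stroma. The cytosolic members had the other order, with 30 of 83 lower in endothelium (median -0.58) and 72 of 83 in stroma (median -0.99).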

How the data were processed

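RNA of 24 libraries, prepared with Trizol and sequenced as paired 51-base Illumina TruSeq reads per the labels, was used as FPKM values for 23879 gene symbols. The authors made these FPKM values with TopHat, Cufflinks and the mm9 genome, per the submitters' processing notes; versions and settings are not given in the sources used here. Library totals lie above what FPKM usually sum to, and no source used here states a further scaling. Low values did not fall on steps of single reads, so the depth is unknown and no interval for counting error is given.

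Groups were taken from the titles. Values were analysed as log2(FPKM + 1), which understates changes of low genes, with a filter of at least 1 FPKM in at least 3 libraries of a fit. For 12 comparisons in 3 fits of 12 libraries each, limma 3.58.1 (R 4.3.3; lmFit, eBayes with trend) gave differences, SE and Benjamini-Hochberg adjusted p-values over all tested genes, called under 0.05. Comparisons in a fit share groups, so they are not independent. Summaries and figures were made with Python 3.11.15, pandas 2.3.3, numpy 2.4.6 and matplotlib 3.10.9, and the fits were checked on simulated data.

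Alternatives were a pseudocount of 0.1, no filter or one at 5 FPKM, trimmed-mean scaling (unweighted, since no counts were used), quantile normalization, only the groups compared, the replicate number as a block, and each library left out. Deviations of libraries with the same number correlated between -0.16 and 0.12, and in no comparison did more than 1 of 3 pairs exceed 0.1, so the numbers were not taken to pair libraries.

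Members named are the 6 highest and 4 lowest by mean FPKM, the paralogs and the genes they resemble, the stalk genes, Rpsa, the X-linked members, and the 4 largest rises and falls called in each comparison. Of each other list up to 4 called genes per comparison could be named. Some genes that this rule or the marker lists name are not reported here. A named member may be repeated in another comparison. Rpl14, Rpl21 and Rpl30 fall outside this rule and were chosen after their values were seen. The members and lists were chosen with earlier results of these data known. Near copies come from GENCODE M21 transcripts and start windows from RefSeq (GRCm38.p6), matched by symbol. Sequences by mm9 coordinates and protein sequences were not used here.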

Additional observations from a re-analysis of the deposited data

Results flagged for a closer look

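The effect of HSPC differed between endothelium and stroma by the interaction term of the limma fit in 71 members, all with the endothelial change below the stromal one, beside 21.1% of all tested genes called in that direction. The differences of log2 differences were -1.18 for Rps27, -1.06 for Rps27a and -0.93 for Rps18, each in 3 libraries per group. Blood cell and cell cycle markers moved with HSPC in the same libraries, and their part was not tested.

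The change from culture to in vivo differed between the cell types by the same kind of term in 3 members, Rpl22 (1.23), Rps20 (1.22) and Rps3 (1.08), all with the endothelial change above the stromal one. These 3 of 83 members stand beside 16.4% of all tested genes called in that direction and 17.1% in the other, and the count was 2 to 9 without 1 library and 15 without replicate 1 of both cultured groups. Erythroid genes were far higher in stroma in vivo than in endothelium in vivo, and their part was not tested.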

How the results depend on the processing

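With HSPC in stroma, the interaction of HSPC with cell type, endothelium minus stroma alone and in vivo minus culture in stroma kept their direction and stayed within 1.5 times their count under all settings run. Leaving out 1 library gave 66 to 73, 67 to 72, 69 to 70 and 49 to 76 called members there, and 39 to 46 for endothelium minus stroma with HSPC. Without 1 library, the count was 11 to 36 for HSPC in endothelium, 19 to 43 for in vivo minus culture in endothelium, 2 to 9 for its interaction, 4 to 9 for endothelium minus stroma in vivo and 1 to 11 in culture. It was 0 to 6 for alone minus culture in endothelium and 3 to 13 in stroma.

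With only the groups compared in the fit, the count was 0 for endothelium minus stroma in culture, 49 in vivo and 43 for HSPC in endothelium. HSPC in endothelium gave 47 after trimmed-mean scaling and 51 after quantile normalization, which also gave 6 for the interaction of in vivo and culture. The median of stroma in vivo was 7.01 after trimmed-mean scaling. Under quantile normalization Rps9 with HSPC in stroma was at -0.12, which is reversed. Among all called genes, the share of higher ones in the HSPC interaction went from 63.1% to 50.2% after trimmed-mean scaling. The cause of each of these shifts was not tested.

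Settings added after the data were seen were as follows. Without replicate 1 of both cultured groups the count was 12 for endothelium minus stroma in culture, 15 for the interaction of in vivo and culture, and 40 and 30 for alone minus culture in endothelium and stroma. Without the cultured libraries that carry Xist it was 0, 59 for in vivo minus culture in endothelium, and 7 and 37; cultured endothelium then has 1 library, assumed to vary like the other groups. The median of endothelium minus stroma in culture was -0.24 to 0.25 without 1 library, 0.016 and 0.29 under these added settings. That of alone minus culture in endothelium was -0.15 to 0.26 without 1 library and -0.40 without the libraries that carry Xist.

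Without the 100 highest genes of a library the mean shares were 1.72% and 1.82% in cultured endothelium and stroma, 1.78% and 1.48% alone, 1.72% and 1.95% with HSPC and 1.56% and 1.62% in vivo. Endothelium alone and with HSPC then overlapped, and so did in vivo and cultured libraries of each cell type. With the replicate number as a block, the count for endothelium minus stroma in culture was 3, and the other 11 counts stayed within 1.5 times. Of 3168 refits of named members, 2894 kept direction and side of the threshold, 273 lost the call and 1 reversed. The files give no depth, and 3 libraries per group limit the precision.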
